A study of Mus musculus with 6 samples.

Results

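Cadherins and desmosome genes were followed in mouse pancreatic tumor cells with and without combination immunotherapy. The members were a list of 10 gene symbols, set by name with earlier results of these data known and with no threshold on their values: the cadherins Cdh1, Cdh3 and Cdh17, the desmosomal cadherins Dsg2 and Dsc2, the plaque proteins Jup, Pkp1, Pkp2 and Pkp3, and the linker Dsp. All 10 were found among the 24493 genes of the deposited table. The 6 libraries came from tumor cells sorted from tumors grown under the skin of C57BL/6 mice, and every title names the same tumor cell clone, 6419c5. In 4 libraries the label is control. In the other 2 it is GAFCP, a combination of gemcitabine, abraxane, a CD40 agonist and blockade of both PD-1 and CTLA-4. The sources used here do not give the genotype of the clone, the doses and times, the animals' ages or the gate of the sort. Both groups share the clone, the site and the strain of the host. The tumors did not grow in the pancreas, 1 clone cannot show how other tumor lines respond, and no label says if the libraries of 1 group were taken from different animals. P-values below thus measure spread among these 6 libraries alone, which may be technical.

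Cadherins are calcium-dependent adhesion proteins that join neighbouring cells. E-cadherin (Cdh1) and P-cadherin (Cdh3) form adherens junctions, whose cytoplasmic side is linked to actin through catenins, while Cdh17 is a cadherin of the intestinal lining with a short cytoplasmic tail. Desmosomes are spot-like junctions in which desmogleins and desmocollins bind across the gap between cells, plakoglobin (Jup) and plakophilins form the inner plaque, and desmoplakin (Dsp) ties the plaque to keratin filaments. Pancreatic ductal tumors are epithelial and usually keep keratins and some junction proteins, and loss of E-cadherin is a known feature of a mesenchymal shift.

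Promoter sequences are shown for Dsp, the member with the largest difference between groups, and Jup, the member with the smallest adjusted p. They were the only members, 2 of 10, matched by symbol in the RefSeq promoter table used here (GRCm38.p6), whose windows run from 250 bases before to 50 bases after a gene's start. The sequences below run 5′ to 3′ on the gene's strand and end 30 bases after the start. Capitals mark a match to an E-box of the kind bound by Snail and Zeb repressors.
Dsp promoter, chr13:38151044-38151323, plus strand: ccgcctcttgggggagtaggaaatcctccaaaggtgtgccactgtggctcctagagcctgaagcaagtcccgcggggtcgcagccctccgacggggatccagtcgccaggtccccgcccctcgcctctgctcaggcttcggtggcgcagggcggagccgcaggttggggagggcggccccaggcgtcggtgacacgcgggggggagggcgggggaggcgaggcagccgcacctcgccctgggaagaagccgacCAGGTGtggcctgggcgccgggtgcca
Jup promoter, chr11:100397761-100398040, minus strand: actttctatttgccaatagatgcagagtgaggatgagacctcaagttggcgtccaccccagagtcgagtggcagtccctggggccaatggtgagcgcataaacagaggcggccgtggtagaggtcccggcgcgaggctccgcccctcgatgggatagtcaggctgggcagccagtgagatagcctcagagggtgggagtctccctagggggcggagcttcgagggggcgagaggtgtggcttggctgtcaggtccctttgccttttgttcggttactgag
Both strands were searched for CACCTG (read as CAGGTG on the other strand), the E-box, and for AACCGGTT, a Grainyhead-like site that reads the same on both strands; the 2 motifs share no overlap. The Dsp window held 1 E-box match, printed as CAGGTG and beginning at base 4 after the start. The Jup window held no match to these letters. Over 32544 distinct promoter windows of the same length, 20.3% held the E-box on either strand and 0.147% held AACCGGTT. The 300-base Dsp window had a GC content of 73.0% and 27 CpG dinucleotides, against a median of 53.0% and 7 over all windows. The Jup window had 60.7% GC and 14 CpG.

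Values are TPM, transcript abundance per transcript length scaled so that every library has an equal total, and levels of different genes can be set side by side. TPM keeps no depth, so sequencing depth is unknown, and the error of a value can be judged only from replicate libraries. The labelled cell type was checked with keratins of simple epithelium, which were abundant in every library (at least 1010.2 TPM for each of Krt8, Krt18 and Krt19). RNA of other cells was also present and differed between groups. All 10 pan-leukocyte markers were called higher with GAFCP, and their summed level was 98.1 to 118 TPM in the controls and 289 to 300.02 TPM with GAFCP. All 13 macrophage and monocyte markers were called higher (summed level 1496 to 1600 against 5890 to 5962 TPM). The summed level of 12 T and NK cell markers was 6.77 to 9.09 TPM in the controls and 37.4 to 41.3 TPM with GAFCP. Of 9 tested T and NK cell markers 8 were called higher, but 5 of them (Cd3e, Cd3g, Cd2, Cd4 and Nkg7) would not have passed the filter of 1 TPM in 2 libraries on the controls alone, so their calls carry no weight. In bulk RNA, fewer cells of a type and less RNA per cell cannot be told apart. The part of these cells in the results below was not tested.

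Desmosome transcripts were lower with GAFCP while E-cadherin and P-cadherin were not called. Of the 10 members, 7 were called lower, 0 higher and 3 were not called (Cdh1, Cdh3 and Pkp2), at an adjusted p under 0.05 with limma on log2(TPM + 1). Among the 7 desmosome genes 6 were called lower, all but Pkp2. The median log2 change of the members was -0.63, against -0.07 over all 13720 genes tested. Of all tested genes 28.5% were called lower and 19.0% higher, so lower calls were common in these libraries. Both GAFCP libraries lay below all 4 controls for 8 members, an arrangement found in 36.9% of tested genes, and above all controls for none, against 24.7% of tested genes. All 10 members reached at least 1 TPM in every library, so none entered the test through 1 group alone. Median-of-ratios scaling moved the split over all genes from 3909 lower and 2606 higher to 3352 lower and 3533 higher, with 7 members called lower in both.

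**Figure D1:**
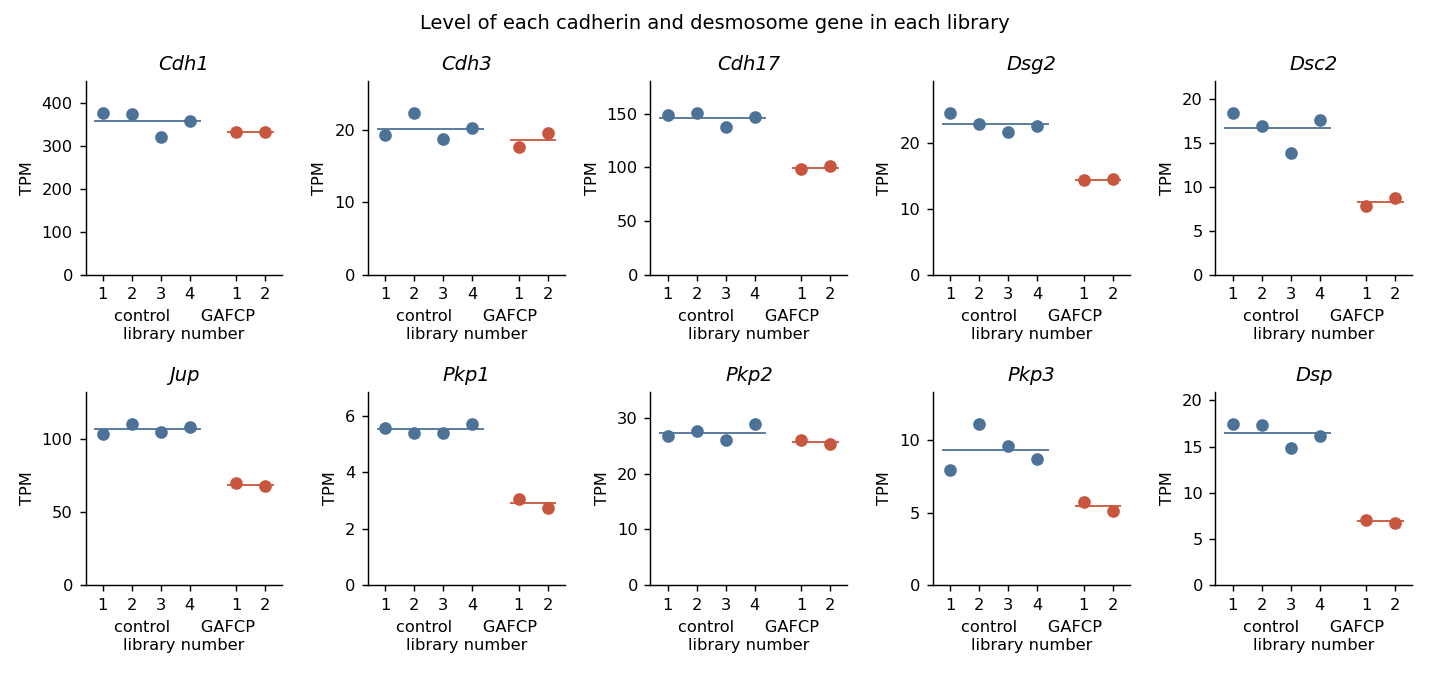
Level of each member in each library, in TPM on linear axes that start at 0, with control libraries 1 to 4 in blue, GAFCP libraries 1 and 2 in red and a line at each group's mean. The GAFCP points lie well below the controls for Cdh17, Dsg2, Dsc2, Jup, Pkp1, Pkp3 and Dsp, and close to or among the controls for Cdh1, Cdh3 and Pkp2.

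Cdh1, which encodes E-cadherin, the main adhesion protein of epithelial adherens junctions, was the most abundant member. It lies on chromosome 8 from 106603351 to 106670246 (mm10). Control libraries 1 to 4 had 376, 374, 322 and 358 TPM, and GAFCP libraries 1 and 2 had 333 and 332 TPM. The groups overlap, because control library 3 is below both GAFCP libraries while the other controls are above them. The mean was 358 ± 25.01 TPM (SD, n = 4) in the controls and 332 ± 0.797 TPM (SD, n = 2) with GAFCP, or 92.9% of the control level. The log2 change of -0.10 ± 0.06 (SE) was not called (limma adjusted p = 0.21) and turned positive (0.32) when libraries were scaled to equal keratin TPM. The lack of a call depended on control library 3 and on the settings. Without that library Cdh1 was called lower (log2 change -0.15, limma adjusted p = 0.00854). With all 6 libraries it was also called lower under quantile normalization (-0.19) and library weights (-0.13; limma adjusted p = 0.030 and 0.032).

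Cdh3, which encodes P-cadherin, a classical cadherin of basal and placental epithelium, lies next to Cdh1 on chromosome 8, from 106510891 to 106557297. Its levels were 19.2, 22.3, 18.7 and 20.3 TPM in the controls and 17.6 and 19.6 TPM with GAFCP. The GAFCP libraries fall on both sides of the lowest control, so the groups overlap. The log2 change was -0.11 ± 0.08 (SE; limma adjusted p = 0.32), with 20.1 ± 1.59 TPM (SD, n = 4) against 18.6 ± 1.42 TPM (SD, n = 2), and it too turned positive (0.29) with keratin scaling. P-cadherin transcripts stood far below those of E-cadherin in every library.

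Cdh17, also called liver-intestine cadherin, was the 1 cadherin member outside the desmosome that was called. It was lower in both GAFCP libraries, at 98.0 and 101 TPM, than in any control, at 149, 150.4, 138 and 147 TPM. The groups are separated by a gap wider than the range of either. The control mean was 146 ± 5.59 TPM (SD, n = 4) and the GAFCP mean 99.6 ± 2.25 TPM (SD, n = 2), which is 68.2% of the control level. The log2 change was -0.55 ± 0.04 (SE; limma adjusted p = 4.2e-05). The gene lies on chromosome 4 from 11758147 to 11817895.

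Both desmosomal cadherins expressed here were lower with GAFCP. Dsg2, the desmoglein of simple epithelia and heart, had 24.4, 22.8, 21.6 and 22.4 TPM in the controls and 14.3 and 14.4 TPM with GAFCP. Its GAFCP libraries were nearly equal and both were below every control. The level with GAFCP was 63.0% of the control level, and the log2 change was -0.63 ± 0.06 (SE; limma adjusted p = 1.1e-04). Dsc2, the desmocollin found in the same tissues, had 18.4, 17.0, 13.8 and 17.6 TPM in the controls and 7.81 and 8.67 TPM with GAFCP. Control library 3 was the lowest control, yet was still above both GAFCP libraries. Dsc2 went to 49.3% of the control level (log2 change -0.93 ± 0.11, SE; limma adjusted p = 3.2e-04). Dsc2 made up 42.2 ± 2.15% (SD, n = 4) of the summed TPM of Dsg2 and Dsc2 in controls and 36.4 ± 1.56% (SD, n = 2) with GAFCP. That share did not overlap between groups, and its two-sided exact permutation p of 0.0667 is the smallest that 15 arrangements of 4 and 2 libraries allow. Both genes lie on chromosome 18, Dsc2 from 20030633 to 20059554 and Dsg2 from 20558074 to 20604521.

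Plakoglobin was the most abundant desmosome transcript. Jup, whose armadillo-repeat protein is a relative of beta-catenin and also binds classical cadherins, had 103, 110.3, 105 and 108 TPM in the controls and 69.7 and 68.0 TPM with GAFCP. The controls lie close together and both GAFCP libraries lie below them. The control mean was 107 ± 3.17 TPM (SD, n = 4) and the GAFCP mean 68.9 ± 1.15 TPM (SD, n = 2), or 64.6% of the control level. The log2 change of -0.62 ± 0.04 (SE) had the smallest adjusted p of the members (limma adjusted p = 1.3e-05). Jup lies on chromosome 11 from 100368958 to 100397763, on the minus strand.

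The plakophilins, armadillo proteins that gather desmoplakin at the plaque, did not all differ between groups. Pkp2, the plakophilin of simple epithelia and heart, had 26.8, 27.6, 26.0 and 28.9 TPM in the controls and 26.0 and 25.4 TPM with GAFCP. GAFCP library 1 and control library 3 were nearly equal, so the groups all but touch although Pkp2 counts among the 8 members below all controls. The log2 change was -0.09 ± 0.06 (SE; limma adjusted p = 0.25), or 0.32 with keratin scaling. Pkp1, best known from the suprabasal layers of skin, was called lower, at 5.58, 5.37, 5.39 and 5.70 TPM in controls against 3.04 and 2.75 TPM with GAFCP (log2 change -0.74 ± 0.08, SE; limma adjusted p = 2.3e-04). Pkp3, which is found in most epithelial desmosomes, was called lower as well, at 7.92, 11.1, 9.57 and 8.67 TPM in controls against 5.72 and 5.14 TPM with GAFCP. Its log2 change of -0.67 ± 0.12 (SE; limma adjusted p = 0.0030) came with the widest relative spread among controls, a coefficient of variation of 14.7% against 2.90% for Pkp1. For both genes every control lies above both GAFCP libraries. Pkp1 is on chromosome 1 (135871395 to 135919207), Pkp2 on chromosome 16 (16213318 to 16272712) and Pkp3 on chromosome 7 (141078218 to 141090510).

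The make-up of the plakophilins therefore differed, a comparison chosen after the values were seen that does not depend on how libraries are scaled. Pkp2 was 66.5%, 62.6%, 63.5% and 66.8% of summed plakophilin TPM in the controls and 74.8% and 76.3% with GAFCP. Both GAFCP libraries are above every control, while the mean Pkp2 TPM with GAFCP was 93.9% of the control level. The mean share was 64.8 ± 2.11% (SD, n = 4) against 75.5 ± 1.06% (SD, n = 2), with a two-sided exact permutation p of 0.0667, the smallest possible. Pkp1 gave 13.1 ± 0.681% and 8.51 ± 0.332%, and Pkp3 22.1 ± 2.67% and 16.0 ± 0.725% (SD, same libraries; exact permutation p = 0.0667 and 0.133). The summed plakophilin level was 42.1 ± 1.82 TPM in the controls and 34.0 ± 1.05 TPM with GAFCP.

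**Figure D2:**
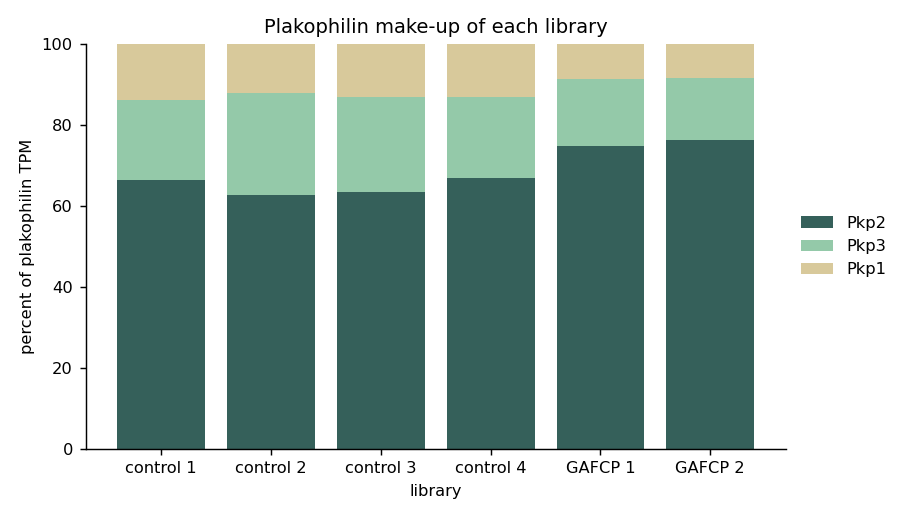
Share of summed plakophilin TPM (percent, from 0 to 100) held by Pkp2, Pkp3 and Pkp1 in each of the 6 libraries. The Pkp2 share is between 62.6% and 66.8% in the controls and is 74.8% and 76.3% in the GAFCP libraries.

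Dsp showed the largest difference of the members. Desmoplakin is the plakin that every desmosome needs to hold keratin filaments. The controls had 17.5, 17.3, 14.9 and 16.1 TPM and the GAFCP libraries 7.11 and 6.73 TPM. Both GAFCP libraries lie far below every control. The control mean was 16.4 ± 1.19 TPM (SD, n = 4) and the GAFCP mean 6.92 ± 0.275 TPM (SD, n = 2), or 42.1% of the control level. The log2 change was -1.14 ± 0.08 (SE; limma adjusted p = 1.6e-05), and 316 of the 13720 tested genes had a more negative log2 change. Dsp lies on chromosome 13 from 38151294 to 38198577. Its percentile among the levels of tested genes went from 51.4 to 31.2. Summed over the 7 desmosome genes the level was 205 ± 6.54 TPM in the controls and 132 ± 1.78 TPM with GAFCP.

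Ordered by control level, the members ran Cdh1, Cdh17, Jup, Pkp2, Dsg2, Cdh3, Dsc2, Dsp, Pkp3 and Pkp1. The neighbours Dsg2 and Cdh3, and Dsc2 and Dsp, had overlapping control ranges, and the other neighbours did not. With GAFCP the order was the same except that Cdh3 stood above Dsg2. Control library 3 was the lowest control for 7 of the 10 members. Cdh1 stood at percentile 97.5 of the levels of all tested genes in controls and 97.2 with GAFCP, and Pkp1 went from 26.7 to 16.7.

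Ratios within a library do not change with its scaling, so each member was also set against Cdh1, a reference chosen after the values were seen. The log2 ratio of Dsp to Cdh1 was -4.43, -4.43, -4.44 and -4.47 in controls and -5.55 and -5.62 with GAFCP. The 4 controls were nearly equal, at -4.44 ± 0.0192 (SD), and the mean difference was -1.14. The difference was -0.91 for Dsc2, -0.83 for Pkp1, -0.67 for Pkp3, -0.56 for Dsg2, -0.53 for Jup and -0.45 for Cdh17. For these 7 genes both GAFCP ratios were below every control ratio, each with a two-sided exact permutation p of 0.0667, the smallest possible, and 0.0858 after adjustment over the 9 ratios. The share of all tested genes with such ratios to Cdh1 was not computed. On TPM itself, both GAFCP libraries lay below all controls in 36.9% of tested genes. Cdh3 (-0.01, exact permutation p = 0.93) and Pkp2 (0.01, exact permutation p = 0.87) had ratios that overlapped between groups, although a test of this size cannot show that they did not differ.

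**Figure D3:**
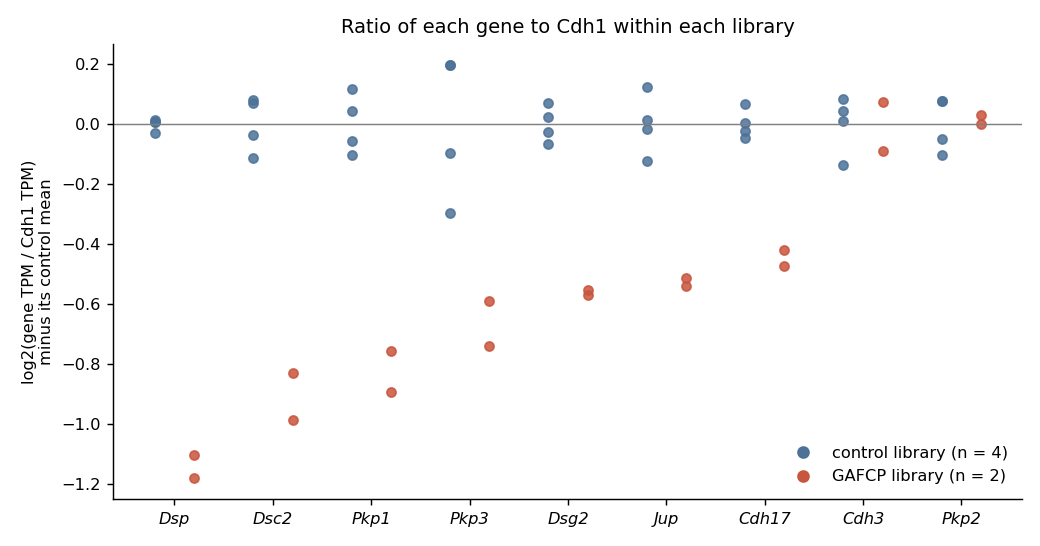
Log2 ratio of each of 9 members to Cdh1 in each library, drawn as the difference from the mean of the 4 control ratios (blue, control; red, GAFCP). The GAFCP points are below all control points for 7 genes, with Dsp lowest at a mean difference of -1.14, and lie among the controls for Cdh3 and Pkp2.

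The keratins that desmosomes anchor were themselves lower in part. Krt8 went from 2321 ± 62.2 to 1544 ± 5.02 TPM and Krt19 from 1615 ± 33.1 to 1020.5 ± 14.6 TPM (SD, n = 4 and 2), both called lower with limma. Krt18, the partner of Krt8 in simple epithelia, had 1766 ± 45.2 and 1691 ± 37.1 TPM and was not called, and its log2 change of -0.06 was 0.01 with median-of-ratios scaling. Relative to the summed TPM of Krt8, Krt18 and Krt19, 7 members were still lower in both GAFCP libraries than in every control, from Dsp (log2 difference -0.72) to Cdh17 (-0.12), and Cdh1, Cdh3 and Pkp2 were higher by 0.32, 0.31 and 0.34. The exact permutation p was 0.0667 for each (0.0741 adjusted over 10 members) except Pkp3 (0.133). For these ratios 1 TPM was added to the level of the member and none to the keratins, which shrinks the differences of low genes such as Pkp1. Counts without the added 1 were not computed. The choice of keratin mattered. Against Krt18 alone the same count of 7 was below all controls, against Krt8 alone it was 4 (Dsp, Dsc2, Pkp1 and Jup), and against Krt19 alone it was 1 (Dsp, -0.48). Cdh17 was not lower relative to Krt8 (0.04) or Krt19 (0.12). Ratios to keratin were computed for the 10 members only. The share of all genes below every control on these scales is thus unknown, and the counts cannot be set against it.

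**Figure D4:**
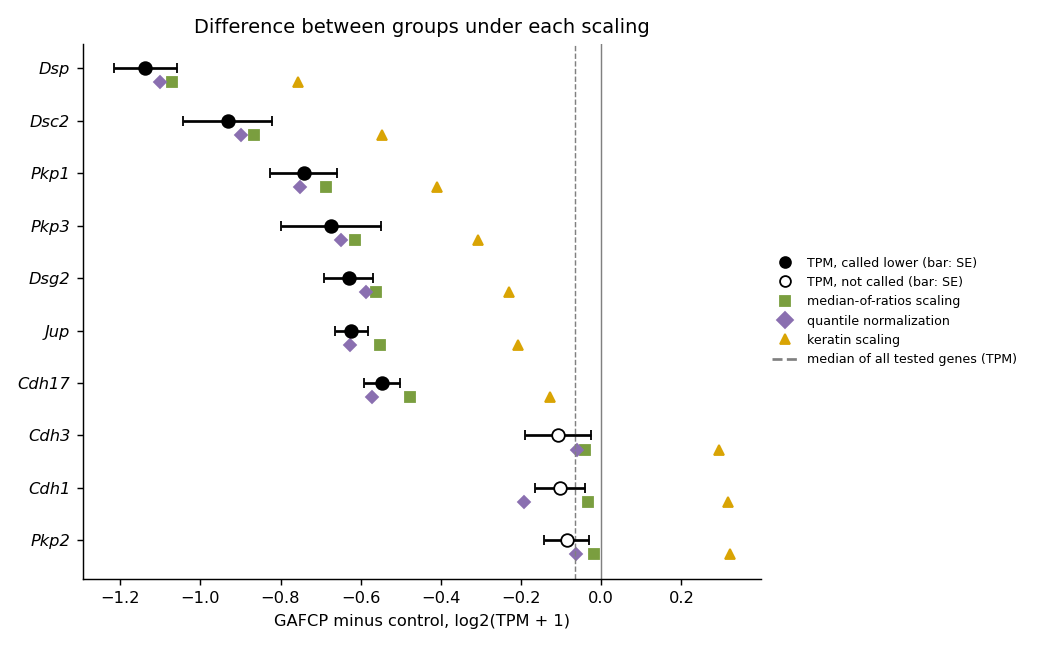
Difference between groups for each member, as GAFCP minus control in log2(TPM + 1), with the TPM values as black circles (bars, SE; filled where called lower), other scalings in color and a dashed line at the median of all tested genes on TPM. With keratin scaling (triangles) every value shifts up and Cdh1, Cdh3 and Pkp2 become positive, while Dsp stays lowest under each scaling.

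Scaling the libraries to equal keratin TPM called 1018 of all 13720 tested genes lower and 8697 higher. This is the background for the counts with keratin scaling below. It moved the median of all tested genes from -0.07 to 0.32. Relative to that shifted median Cdh1, Cdh3 and Pkp2 stood at 0.00, -0.02 and 0.01 and Dsp at -1.07. All 7 called members remained called lower under keratin, quantile and median-of-ratios scaling.

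Among the 19 other classical and atypical cadherins, 8 were tested, 4 were called lower and 0 higher, with a median log2 change of -0.19. Without Cdh15, which passed the filter only through the controls, 3 were called lower. Shares over all tested genes on TPM were 28.5% lower and 19.0% higher. With keratin scaling 2 of the 8 were called lower and 2 higher and the median was 0.14. Cdh10, a cadherin known mainly from the nervous system, fell from 24.4 ± 1.40 to 6.19 ± 0.118 TPM (SD, n = 4 and 2; log2 change -1.82, limma adjusted p = 5.5e-07). Cdh15, the muscle cadherin, had 1.19 to 1.71 TPM in the controls and was listed at 0 and 0.0460 TPM with GAFCP. Cdh24 (-0.35) and Cdh6 (-0.28) were called lower less firmly. Cdh24 lost the call without either GAFCP library (limma adjusted p = 0.073 and 0.069), and Cdh6 (limma adjusted p = 0.035) lost it without any single library other than control library 3, and both had positive changes with keratin scaling. N-cadherin (Cdh2), whose gain is a mark of mesenchymal cells, had 46.7, 49.3, 42.9 and 46.9 TPM in the controls and 45.0 and 43.2 TPM with GAFCP. The Cdh2 groups overlap, and the log2 change was -0.07 (limma adjusted p = 0.37), or 0.34 with keratin scaling.

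The cadherin make-up of the libraries differed as well. Cdh1 held 53.1 ± 0.807% (SD, n = 4) of the summed TPM of 22 cadherins in controls and 58.3 ± 0.305% (SD, n = 2) with GAFCP, without overlap. Cdh17 held 21.7 ± 0.426% and 17.5 ± 0.345%, again without overlap, and Cdh10 3.63 ± 0.165% and 1.09 ± 0.0237%. The Cdh2 share was 6.89 ± 0.139% and 7.74 ± 0.249%, and the Cdh13 share 6.9 ± 0.286% and 7.77 ± 0.00217%. A share can rise without a rise in TPM, since the shares of a library have a fixed sum. The mean TPM of Cdh1, Cdh2 and Cdh13 with GAFCP was 92.9%, 95.0% and 95.4% of the control level. How often shares in other gene sets lack overlap was not computed. The shares of Cdh1, Cdh17, Cdh10, Cdh2 and Cdh13 each had an exact permutation p of 0.0667, the smallest possible. The Cdh3 share of 2.98% and 3.26% overlapped (exact permutation p = 0.27). The summed level of the 22 cadherins was 673 ± 38.2 TPM in the controls and 569.8 ± 1.61 TPM with GAFCP.

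Of 16 cadherin-related and giant cadherin symbols listed, 15 were found among the deposited genes and 7 were tested. Of these 3 were called lower and 1 higher, where 28.5% of all tested genes were called lower and 19.0% higher. With keratin scaling 0 were lower and 3 higher. Cdhr2 and Cdhr5, which link the tips of microvilli in the intestinal brush border, fell by 0.53 and 0.31 on the log2 scale, and Celsr1, a planar polarity cadherin, fell by 0.50. With keratin scaling the 3 were not called, and Cdhr5 had a positive change (0.10) there and also lost the call without GAFCP library 1 (limma adjusted p = 0.064). Cdhr1, a cadherin of photoreceptors, was the gene called higher, at 0.640 to 0.813 TPM in the controls and 2.15 and 2.24 TPM with GAFCP. It passed the filter only through the GAFCP libraries and so had to differ, which leaves 0 higher calls among the rest, and it was not tested when either GAFCP library was left out.

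Catenins, which connect cadherin tails to actin, were mostly called lower. Of 17 catenin and plaque symbols listed, 16 were found among the deposited genes and 13 were tested. Of these 9 were called lower, 1 higher and 3 were not called, with a median log2 change of -0.31. Among all tested genes 28.5% were called lower and 19.0% higher. With keratin scaling 3 were lower and 4 higher and the median was 0.10. Beta-catenin (Ctnnb1), which serves both adhesion and Wnt signalling, had 494, 504, 448 and 492 TPM in the controls and 254 and 266 TPM with GAFCP. It fell by 0.90 on the log2 scale (limma adjusted p = 5.9e-06), more than Jup, so that Jup held 18.1 ± 0.696% (SD, n = 4) of their summed TPM in the controls and 21.0 ± 0.806% (SD, n = 2) with GAFCP. Alpha-catenin (Ctnna1), the actin linker, went from 307 ± 19.1 to 249.99 ± 0.248 TPM, and p120-catenin (Ctnnd1), which holds cadherins at the surface, from 103 ± 8.44 to 79.4 ± 0.546 TPM. Their log2 changes of -0.29 and -0.37 (limma adjusted p = 0.0041 and 0.0042) turned positive with keratin scaling, at 0.13 and 0.05. Zyx, which encodes the actin regulator zyxin, was the gene called higher, at 81.9 ± 3.30 against 102 ± 4.80 TPM.

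Other desmosome-associated genes were lower where they were expressed. Of 10 such genes 7 were under 1 TPM in every library, among them desmogleins and desmocollins of stratified epithelium, with Dsg1a and Dsg4 at 0 throughout. All 3 tested genes were called lower, as were 28.5% of all tested genes. Perp, a membrane protein of desmosomes that p53 induces, had 63.6, 71.0, 62.1 and 67.8 TPM in the controls and 29.1 and 31.5 TPM with GAFCP (log2 change -1.10, limma adjusted p = 7.1e-06). Periplakin (Ppl), a plakin like desmoplakin, had 21.7, 21.0, 17.8 and 21.2 TPM in the controls and 9.70 and 8.69 TPM with GAFCP (log2 change -1.07, limma adjusted p = 5.1e-05). For Perp and Ppl the groups are far apart. Envoplakin (Evpl), the partner of periplakin, fell by 0.36 and lost the call without GAFCP library 1 (limma adjusted p = 0.055), with 0.02 under keratin scaling. Keratinocyte markers were read beside these genes, and their summed level was 72.6 to 74.2 TPM in the controls and 58.4 to 61.3 TPM with GAFCP. Of 7 tested markers 2 were called lower and 1 higher. The defining genes Trp63 and Krt1 were at or below 0.179 TPM in every library and Krt5 between 0.262 and 1.61 TPM, while Krt14 went from 20.8 ± 1.38 to 14.7 ± 0.843 TPM and Sfn from 26.3 ± 0.804 to 14.0 ± 0.301 TPM. The marker called higher was Ivl, the cornified envelope protein involucrin, at 5.65, 6.48, 5.72 and 4.97 TPM in the controls and 13.5 and 14.0 TPM with GAFCP (log2 change 1.14, limma adjusted p = 5.0e-05). The part of such cells in the desmosome result was not tested.

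**Figure D5:**
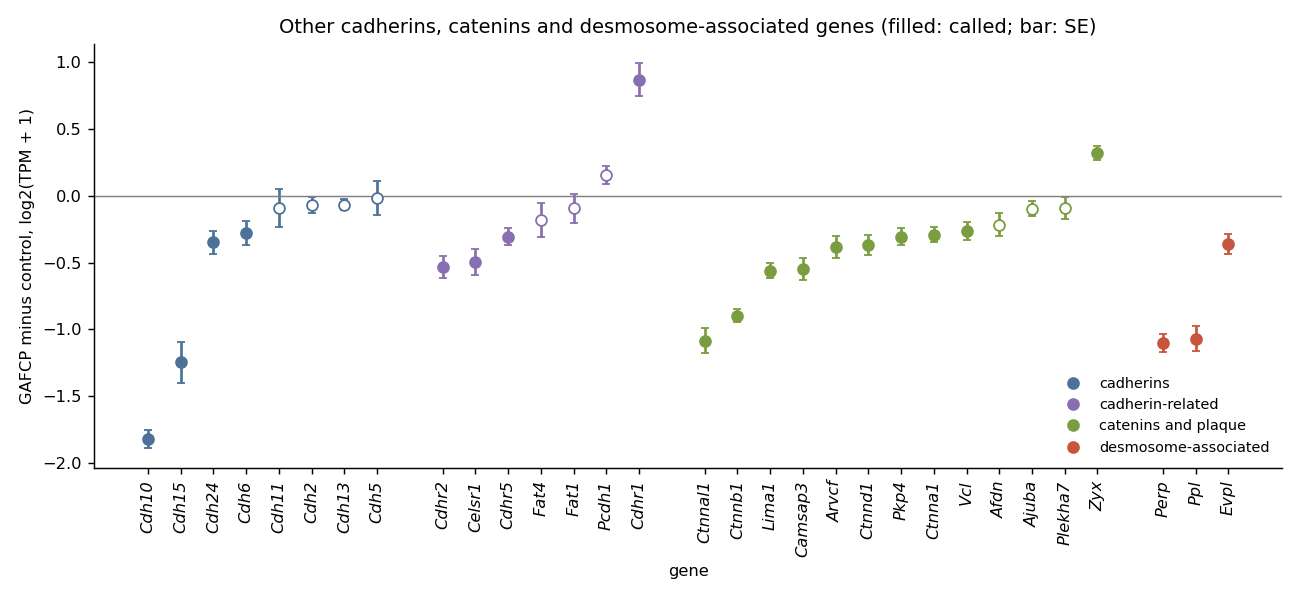
Difference between groups, as GAFCP minus control in log2(TPM + 1) with SE bars, for the tested genes of 4 lists: other cadherins, cadherin-related genes, catenins and plaque genes, and other desmosome-associated genes. Filled points passed the test, with Cdh10 lowest at -1.82 and the desmosome-associated Perp and Ppl at -1.10 and -1.07.

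Transcription factors that repress or sustain cadherin expression moved in both directions. Of 19 transcription and splicing factors of the epithelial state 14 were tested, and 5 were called lower and 5 higher. Without Ovol1, which passed the filter only through the GAFCP libraries, 4 were higher. Over all 13720 tested genes 28.5% were called lower and 19.0% higher, so calls in both directions were common. With keratin scaling 1 was called lower (Hnf4a) and 11 higher, a scaling that called 8697 of all 13720 tested genes higher. Among repressors of Cdh1, Snai1 rose from 5.83 ± 0.987 to 10.6 ± 1.23 TPM and Zeb2 from 4.98 ± 0.354 to 11.7 ± 0.351 TPM (SD, n = 4 and 2; limma adjusted p = 0.0030 and 2.9e-05). Twist1 and Twist2 went the other way and were called lower (limma adjusted p = 0.022 and 0.0076). Twist1 went from 30.1 ± 0.945 to 25.6 ± 2.5 TPM and Twist2 from 5.55 ± 0.474 to 3.85 ± 0.258 TPM (SD, same libraries). Zeb1, at 13.3 ± 1.27 and 14.2 ± 0.808 TPM, and Snai2, at 2.63 ± 0.451 and 2.96 ± 0.365 TPM, were not called (limma adjusted p = 0.47 and 0.48). Both passed the test with keratin scaling, at 0.48 and 0.45, where the median of all tested genes was itself 0.32. Zeb2 is also expressed by macrophages, whose markers were higher with GAFCP as given above, and their part in these values was not tested. Klf4, an epithelial differentiation factor, rose from 35.2 ± 0.793 to 62.2 ± 1.25 TPM. The part of other cells in the Klf4 and Snai1 values was not tested either. The gut and liver regulators Hnf4a and Cdx2 fell, Hnf4a from 86.4 ± 3.21 to 49.9 ± 0.355 TPM and Cdx2 from 15.9 ± 0.827 to 11.2 ± 0.999 TPM, although Cdx2 was not called with keratin scaling (-0.09). Grhl2, an activator of Cdh1, was at or below 0.150 TPM in every library.

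Proteases that cut cadherins at the cell surface or in the membrane were tested in 7 of 8 cases, with 1 called lower and 3 higher. Over all tested genes 28.5% were called lower and 19.0% higher. With keratin scaling 0 were lower and 6 higher, where 8697 of all 13720 tested genes were called higher. Mmp3, a matrix metalloprotease, rose from 10.6 ± 0.551 to 76.8 ± 1.51 TPM (log2 change 2.74, limma adjusted p = 4.1e-08). Adam9 rose from 214 ± 12.3 to 296 ± 0.933 TPM, and Adam15 from 98.3 ± 4.40 to 111 ± 0.0848 TPM with a call that was lost without either GAFCP library (limma adjusted p = 0.092 and 0.093). Psen2, a subunit of gamma-secretase, fell from 26.0 ± 0.486 to 18.4 ± 0.613 TPM and was not called with keratin scaling. Beside these values, 7 of 10 tested fibroblast and pericyte markers were called higher and 1 lower, with a summed level of 205 to 225 TPM in the controls and 343 to 344 TPM with GAFCP, and their part was not tested. Among lymphocyte receptors of E-cadherin, Itgb7, the beta chain that pairs with Itgae, rose from 1.43 ± 0.127 to 5.91 ± 0.251 TPM, while Itgae and Klrg1 were below 1 TPM in every library.

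The neighbours of Cdh3 and Cdh1, which are 46438 bases apart on chromosome 8 in RefSeq, did not share one direction. Smpd3, a sphingomyelinase gene upstream of Cdh3, went from 128 ± 3.68 to 68.2 ± 0.0968 TPM (SD, n = 4 and 2; log2 change -0.90, limma adjusted p = 1.4e-06). Has3, a hyaluronan synthase gene beyond Cdh1, went from 3.27 ± 0.168 to 1.23 ± 0.00621 TPM (log2 change -0.93, limma adjusted p = 1.8e-04). Both were called lower, while the genes between them were not called on TPM. Zfp90 was at 15.6 ± 0.710 and 17.0 ± 0.544 TPM and Tango6 at 11.4 ± 0.832 and 9.92 ± 0.0588 TPM (limma adjusted p = 0.16 and 0.083). Zfp90 was called higher with median-of-ratios (0.18), quantile (0.17) and keratin scaling (0.52; limma adjusted p = 0.016, 0.021 and 7.7e-05). Tango6 was called lower without control library 3 (limma adjusted p = 0.028) and had a positive change (0.20) with keratin scaling.

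Genes with the pattern most like Cdh1 over the 6 libraries, by Pearson correlation of log2(TPM + 1) among 10059 genes, were the kinase genes Map4k5 and Map3k5 (r = 0.998 for both) and Secisbp2l (r = 0.995), and 598 genes had r over 0.9. For Dsp they were Micu2, Sort1 and Ttyh3 (r from 0.9993 to 0.9995), with 2607 genes over 0.9. Sort1, the sorting receptor sortilin, went from 19.5 to 7.05 TPM. Since 6 points in 2 groups share the same libraries and scaling, these values are descriptions only.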

How the data were processed

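Per the labels' protocols, a commercial company handled RNA that had been extracted from sorted tumor cells. The deposited table gives TPM for 24493 genes in 6 libraries, which the authors made with Salmon and the mm10 build, per the submitters' processing notes. The release of Salmon and its transcript set are unknown here (not given in the sources used). TPM of all genes in a library move together when a few abundant genes differ, so alternative scalings were tried. Groups and replicate numbers come from the labels.

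The test took the 13720 genes that reached 1 TPM in 2 or more libraries. On log2(TPM + 1) it used limma 3.58.1 (R 4.3.3) with variances moderated along a mean-variance trend. The code was also run on simulated data, which held no shift of scaling between groups. Benjamini-Hochberg adjustment covered every tested gene, and calls were made under 0.05. Log2 changes are GAFCP minus control and understate changes of low genes. Ratios to keratin took the TPM + 1 of the member, and ratios to Cdh1 and shares took plain TPM. Ratios and shares were compared by two-sided exact permutation tests over all 15 arrangements of the libraries, and the p-values of shares were not adjusted.

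Members and gene lists were chosen with earlier results of these data known. Named genes were all members, up to 4 called genes of each list with the smallest p, a fixed set of junction genes, factors and keratins, the 3 genes most like Cdh1 and Dsp, and the neighbours of Cdh1 and Cdh3. Zyx, Cdh13, Ovol1, Twist1, Twist2, Ivl, Krt14, Sfn, Krt1, Krt5, Trp63, Dsg1a and Dsg4 were chosen after values were seen. So were Ttr, B4galt6, Epcam, the T and NK cell and mast cell markers named, the ratios to Cdh1 and the shares. Positions are from GENCODE M21 on GRCm38 (mm10), and promoters, gaps and neighbours from RefSeq on GRCm38.p6. Alternatives changed the pseudocount, filter, scaling, variance model, library weights, replicate block and controls used, or left out each library in turn.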

Additional observations from a re-analysis of the deposited data

Results flagged for a closer look

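Among 46 named genes checked for a control library far from the other 3, 2 had one, where chance marks about 1 in 20 groups. Cdhr1 was lowest in control library 4, at 0.640 TPM, with a gap to the next control of 83.6% of the control range. Cdx2 was lowest in control library 3, at 14.7 TPM. For both genes the GAFCP libraries lay outside the control range. None of the 10 cadherin and desmosome members had such a library.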

How the results depend on the processing

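The 7 called members kept their direction and call in each of 19 alternatives (Pkp1 in 18, since a mean of at least 5 TPM removed it), with Dsp between -1.23 and -0.76 and the weakest call for Pkp3 (limma adjusted p = 0.043). Keratin scaling reversed Cdh1 (0.32), Cdh3 (0.29) and Pkp2 (0.32), so that 3 members were called higher, and reversed Cdh2 (0.34), Cdh6 (0.12), Cdh24 (0.0128), Cdhr5 (0.10), Ctnna1 (0.13), Ctnnd1 (0.0467), Evpl (0.0216), Tango6 (0.20) and Krt18 (0.36); Krt18 was also reversed by median-of-ratios scaling (0.00902). Over all genes keratin scaling gave 1018 lower and 8697 higher, since it raises every gene in the GAFCP libraries relative to the controls, and leaving out 1 library gave 2514 to 4641 lower and 1715 to 2610 higher. With 1 TPM added to each member, the members below all controls relative to keratin numbered 7 with the keratin sum. They numbered 4 with Krt8 alone and 1 with Krt19 alone. Cdh1 was called lower without control library 3, with control libraries 1 and 2 only (-0.18), with quantile normalization (-0.19), with library weights (-0.13) and with the replicate block (-0.18, limma adjusted p = 0.027). The replicate block over libraries 1 and 2, where control libraries 3 and 4 drop out, left 8 members called lower, Cdh1 with the 7, and gave 3766 lower and 2128 higher genes. The deviations of same-numbered libraries had r = -0.01 and -0.02. With 2 GAFCP libraries each deviates from their mean as the mirror of the other. These values therefore cannot show whether same-numbered samples share more than a number. Depth is unknown in TPM, which limits what can be said of genes near 1 TPM.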

Other observations

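The genes around Dsc2 and Dsg2 on chromosome 18, read after their values were seen, held the remaining desmocollins and desmogleins, which were under 1 TPM in every library. Beyond Dsg2, across a gap of 59682 bases in RefSeq, lie Ttr, the transthyretin gene, and B4galt6, a glycosphingolipid galactosyltransferase gene. Ttr had 37.2, 40.0, 30.6 and 31.5 TPM in the controls and 0.753 and 0.311 TPM with GAFCP. B4galt6 had 61.2, 60.2, 53.8 and 60.1 TPM in the controls and 38.6 and 40.2 TPM with GAFCP (log2 change -0.56, limma adjusted p = 1.8e-04). Cdh2, the next cadherin on the other side of the cluster, was not called on TPM, and its log2 change of -0.07 turned to 0.34 with keratin scaling.

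Epcam, an epithelial adhesion molecule that is no cadherin, was read in the marker list of dendritic and Langerhans cells and had 12.5, 12.8, 12.9 and 13.1 TPM in the controls and 1.68 and 1.39 TPM with GAFCP. Its groups are far apart (log2 change -2.45, limma adjusted p = 2.1e-07), a larger difference than that of any cadherin or desmosome member. Of 7 mast cell markers, Mcpt4 went from 47.0 to 4.64 TPM, the 1 called lower, while Tpsb2 (0.545 to 3.17 TPM) and Cma1 (0.570 to 1.75 TPM) were called higher but would not have passed the filter on the controls alone.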
